A study of Mus musculus with 10 samples.

Results

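The data described here are the transcript levels of 10 genes of the YAP/TAZ module in mouse liver after VEGF gene transfer: the coactivators Yap1 and Wwtr1, the DNA-binding partners Tead1, Tead2, Tead3 and Tead4, the cofactor Vgll4, and the target genes Ctgf, Cyr61 and Ankrd1. They were chosen by name for their place in the pathway, and each has 1 row among the 24016 transcript rows of the expression table. Wwtr1 is the gene for TAZ. The row named Taz is tafazzin, a mitochondrial enzyme with an unrelated function, and was not counted among the 10. The study singled out Wwtr1, Tead2 and other Hippo genes from these same libraries, so their values here are not independent evidence of direction.

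Total RNA of whole liver was sequenced from 10 male C57BL/6 mice aged 8 to 12 weeks. In the AdVEGF group, 5 mice had received an adenovirus that makes VEGF-A165 from the CMV promoter, a promoter active in most cell types and not limited to the vessel wall. In the AdCMV group, 5 mice had received the empty vector with the promoter alone, so both groups had been exposed to adenovirus. The vectors were given into the tail vein, and the livers were perfused and taken on day 6, as biological replicates numbered 1 to 5 in each group.

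The Hippo pathway is a chain of kinases that senses cell contact and tension. When it is active, LATS kinases phosphorylate the coactivators YAP (Yap1) and TAZ (Wwtr1), which are then held in the cytoplasm or degraded. When it is quiet, YAP and TAZ enter the nucleus and bind TEAD proteins, which carry them to genes such as Ctgf and Cyr61, whereas VGLL4 binds the same TEAD surface and opposes them. In liver, YAP is known for its control of organ size and of the choice between hepatocyte and bile duct fate, and in vessels YAP and TAZ take part in sprouting. Messenger RNA levels do not measure the location or phosphorylation of these proteins.

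Levels are given as RPKM, a read count divided by transcript length and by the library total. Differences were tested with limma on log2(RPKM + 0.1) over the 13933 rows whose mean exceeded 0.5 RPKM in 1 group or both, and the p-values were adjusted over those rows by the Benjamini-Hochberg method. A gene was called when the adjusted p was under 0.05 and its mean log2 level differed by more than 1 in either direction. By this rule 1808 rows (13.0%) were higher and 214 (1.54%) lower in the AdVEGF group. Libraries held 5758959 to 13494001 tags in the AdCMV group and 5596565 to 8133953 in the AdVEGF group. The major urinary protein (Mup) genes, a hepatocyte family, took 18.0 to 50.5% of the reads summed over the rows of the table in the AdCMV group and 7.84 to 28.6% in the AdVEGF group, and the median log2 fold change of all rows was 0.38 in the RPKM table as deposited. After median-ratio scaling, which sets the typical row equal between libraries, this median was -0.0044, with 1082 rows (7.77%) higher and 438 (3.14%) lower. The fold changes of the tested genes among the 10 are therefore given on both scales. Hepatocyte identity was plain in every library, with albumin (Alb) at 5864 to 19215 RPKM. In RPKM, the mouse Vegfa row lay at 13.8 to 23.2 in AdCMV mice and at 28.3 to 39.4 in AdVEGF mice; how far reads of the transgene map to that row was not tested.

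Markers of other liver cells moved with the groups. The calls below stand beside 13.0% of all rows called higher on the deposited scale. All 10 pan-endothelial markers were called higher, their summed level being 36.6 to 74.7 RPKM in the AdCMV mice and 269 to 331 RPKM in the AdVEGF mice. So were 6 of 6 sinusoidal endothelial markers (46.6 to 78.3 against 165 to 243 RPKM; 5 after median-ratio scaling, Fcgr2b being lost), 9 of 10 stellate and fibroblast markers (83.7 to 134 against 213 to 422 RPKM) and 4 of 5 smooth muscle markers (11.9 to 24.6 against 54.2 to 210 RPKM). Of the smooth muscle markers, 3 passed the filter only through their AdVEGF mean, and 2 of those were called. The same held for 1 stellate and fibroblast marker, which was called. Of the 7 cholangiocyte markers, 5 were tested and Spp1 alone was called, while the defining markers Krt7 and Cftr lay below the filter. Of the Kupffer cell markers 2 of 5 were called higher, and of the hepatocyte markers 2 of 6 (Alb and Apoa1), both of the latter calls being lost after median-ratio scaling. None of the 4 mesothelial markers passed the filter, with sums of 0.198 to 1.26 RPKM over all 10 mice. In whole tissue, more cells of a type and more RNA per cell cannot be told apart, and the part of these markers in the results below was not tested.

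Of the 10 genes, 9 passed the filter and Tead4 did not. Wwtr1, Tead2 and Ctgf were called higher in the AdVEGF group, 3 of the 9 tested beside 13.0% of all rows, and none was called lower. The same 3 were called in each of the 20 alternative fits. Tead1, Vgll4 and Cyr61 passed the p threshold on the deposited scale and missed the fold threshold; 21.9% of all rows passed the p threshold with a higher AdVEGF level at any fold. Yap1 and Tead3 passed neither threshold, and Ankrd1 passed the fold threshold and missed the p threshold. The median log2 fold change of the 9 genes was 0.97 beside 0.38 for all rows, and 0.58 beside -0.0044 after median-ratio scaling. The AdVEGF mice all lay above the AdCMV mice for Wwtr1, Tead2, Vgll4 and Ctgf, beside 14.3% of all rows, and for Wwtr1, Tead2 and Ctgf after median-ratio scaling, beside 10.6%.

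**Figure D1:**
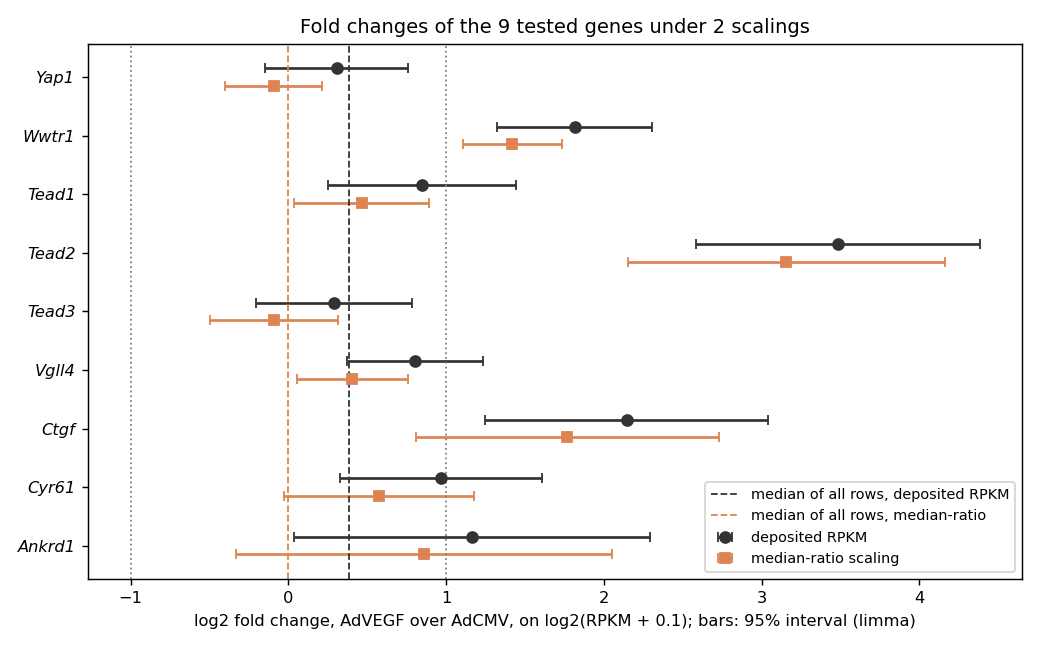
Log2 fold change (AdVEGF over AdCMV, horizontal axis) of the 9 tested genes, with 95% intervals from limma, on the deposited RPKM (dark circles) and after median-ratio scaling (orange squares). Dashed lines mark the median of all rows, 0.38 and -0.0044, and dotted lines the fold threshold; Wwtr1, Tead2 and Ctgf lie beyond it on both scales, and Yap1 and Tead3 lie near the median of all rows.

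Promoter sequence of the members is shown for genes whose level or role the results turn on. RefSeq promoter windows of build GRCm38.p6 matched 7 of the 10 genes, in 10 windows; they are not on the build of the expression table, mm9, and are used for sequence only. The 250 bases before each annotated start were searched for CATTCC, the core of the TEAD binding motif, and for its reverse complement GGAATG. A match was found in 8 of the 10 windows, which belong to 6 of the 7 genes, and in 12.6% of 32851 windows of the same length over all genes; the 2 Wwtr1 windows overlap and share 1 match. A match describes the letters and does not show binding. In the 4 windows that follow, written 5′ to 3′ on the strand of the gene, capitals mark a match. Cyr61 (chr3:145649986-145650235, minus strand) is a target with 1 match at -103 to -98 from the start, Ankrd1 (chr19:36119845-36120094, minus strand) is a target with 2 matches at -210 to -205 and -123 to -118, Wwtr1 (chr3:57575911-57576160, minus strand) is the coactivator that was called higher, with 1 match at -136 to -131, and Tead2 (chr7:45215542-45215791, plus strand) is the TEAD gene that was called higher, with no match.
Cyr61: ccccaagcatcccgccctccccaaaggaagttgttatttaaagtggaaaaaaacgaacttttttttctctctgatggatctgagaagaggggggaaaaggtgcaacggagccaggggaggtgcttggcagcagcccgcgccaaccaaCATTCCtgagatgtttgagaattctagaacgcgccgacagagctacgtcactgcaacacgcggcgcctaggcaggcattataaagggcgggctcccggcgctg
Ankrd1: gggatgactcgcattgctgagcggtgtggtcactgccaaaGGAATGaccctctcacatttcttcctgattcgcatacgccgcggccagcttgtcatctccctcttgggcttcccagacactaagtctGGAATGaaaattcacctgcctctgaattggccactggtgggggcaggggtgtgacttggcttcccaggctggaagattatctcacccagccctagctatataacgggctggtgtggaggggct
Wwtr1: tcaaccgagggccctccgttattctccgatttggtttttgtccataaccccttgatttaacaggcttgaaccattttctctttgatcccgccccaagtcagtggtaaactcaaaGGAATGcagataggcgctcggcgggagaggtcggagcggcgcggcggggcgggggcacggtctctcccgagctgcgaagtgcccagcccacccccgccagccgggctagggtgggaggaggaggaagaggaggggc
Tead2: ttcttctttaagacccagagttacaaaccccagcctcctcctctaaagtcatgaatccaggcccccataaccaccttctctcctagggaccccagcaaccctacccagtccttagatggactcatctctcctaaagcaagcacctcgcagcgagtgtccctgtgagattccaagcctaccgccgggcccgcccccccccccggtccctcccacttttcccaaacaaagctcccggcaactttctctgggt
Windows with 2 or more matches, as in Ankrd1 and in 1 of the 3 Tead3 windows, made up 1.02% of all windows. Among the uncalled genes, Yap1 had 1 match at -141 to -136, Vgll4 had 1 at -82 to -77, and Tead3 had 3, at -182 to -177 in one window and at -123 to -118 and -114 to -109 in another. No window was used for Ctgf, Tead1 and Tead4.

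Wwtr1 was the coactivator whose transcript was higher after VEGF gene transfer. Wwtr1 (NM_133784, chr3:57259566-57379798, minus strand, mm9) had RPKM values of 4.34, 4.88, 7.495, 2.82 and 3.96 in AdCMV mice 1 to 5 and 15.4, 18.4, 17.7, 15.1 and 13.8 in AdVEGF mice 1 to 5. The lowest AdVEGF mouse lay above the highest AdCMV mouse on the deposited scale and after median-ratio scaling. The means were 4.70 ± 1.74 RPKM (SD, n = 5) and 16.1 ± 1.92 RPKM (SD, n = 5), a 3.42-fold ratio. The log2 fold change was 1.82 (SE 0.23, 95% interval 1.32 to 2.31, limma adjusted p = 1.99e-05) and 1.42 after median-ratio scaling (limma adjusted p = 1.57e-05).

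Yap1, the sister coactivator, was not called on either scale. Yap1 (NM_009534, chr9:7932001-8004596, minus strand, mm9) had RPKM values of 6.75, 6.63, 10.6, 6.19 and 10.9 in AdCMV mice 1 to 5 and 9.74, 8.32, 11.4, 8.97 and 11.2 in AdVEGF mice 1 to 5. The groups overlapped, AdCMV mice 3 and 5 lying among the AdVEGF mice. On the log2 scale the difference was 0.31 (SE 0.21, 95% interval -0.15 to 0.76, limma adjusted p = 0.298) as deposited and -0.09 (95% interval -0.40 to 0.22, limma adjusted p = 0.685) after median-ratio scaling, so its sign depended on the scale.

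The ratio of the 2 coactivator transcripts within a library does not depend on scaling between libraries. Wwtr1 over Yap1 was 0.643, 0.735, 0.7099, 0.455 and 0.364 in AdCMV mice 1 to 5 and 1.58, 2.21, 1.55, 1.69 and 1.23 in AdVEGF mice 1 to 5. Yap1 was thus the more abundant transcript per length in every AdCMV mouse and Wwtr1 in every AdVEGF mouse. The mean ratio was 0.582 ± 0.163 (SD, n = 5) against 1.65 ± 0.357 (SD, n = 5). The difference in log2 ratio was 1.53 with a two-sided exact permutation p of 0.00794, the smallest that 5 against 5 mice allow, and 0.00992 after Benjamini-Hochberg adjustment over this ratio and the 4 TEAD shares described with the TEAD genes. It lay between 1.38 and 1.63 when each mouse was left out in turn.

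**Figure D2:**
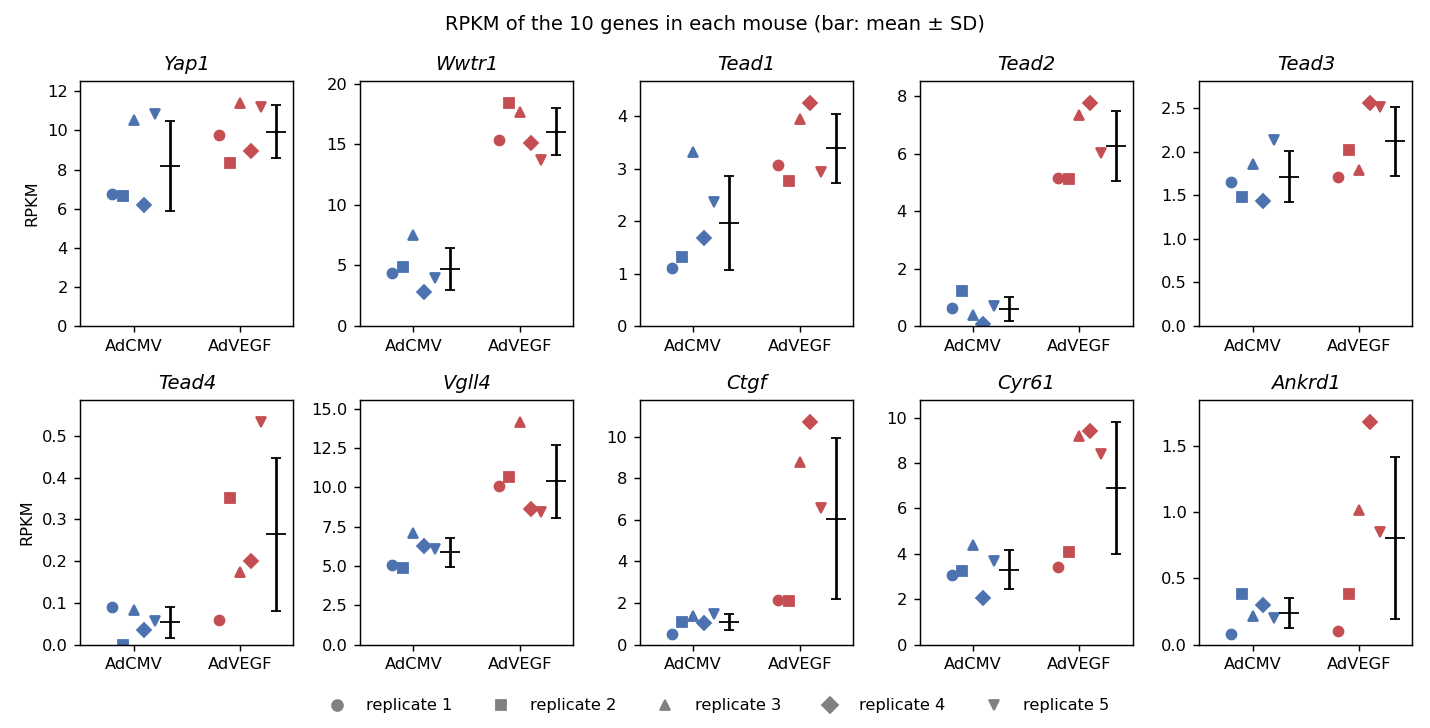
RPKM of the 10 genes in each mouse (vertical axes from 0, a scale per gene); marker shapes are replicate numbers, blue is AdCMV and red AdVEGF, and black bars give the mean ± SD of 5 mice. The groups separate for Wwtr1, Tead2, Vgll4 and Ctgf and overlap for the other 6 genes, and Ctgf, Cyr61 and Ankrd1 are lower in AdVEGF mice 1 and 2 than in AdVEGF mice 3, 4 and 5.

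By root mean square difference of centred log2(RPKM + 0.1) over the 10 mice, among 13932 other rows, the profiles most like Wwtr1 were those of Zswim6 (0.141), Gimap4 (0.155) and Nav1 (0.167), with log2 fold changes of 1.64, 1.86 and 1.71. Those most like Yap1 were Zfp592 (0.0767), Spen (0.0799) and Uba1 (0.0882), with log2 fold changes of 0.33, 0.28 and 0.35. Those most like Tead2 were Sox18 (0.463), Heyl (0.535) and Nrarp (0.542), with log2 fold changes of 3.05, 3.35 and 3.16.

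Among the TEAD factors, which supply the DNA contact that YAP and TAZ lack, Tead2 had the largest log2 fold change of the 10 genes. Tead2 (NM_001285500, chr7:52471123-52488989, plus strand, mm9) had RPKM values of 0.623, 1.23, 0.381, 0.053 and 0.696 in AdCMV mice 1 to 5 and 5.17, 5.13, 7.34, 7.76 and 6.03 in AdVEGF mice 1 to 5. The gap between the groups was wide, from 1.23 to 5.13 RPKM, on 1 to 33 reads in the AdCMV libraries and 58 to 126 in the AdVEGF libraries. The means were 0.596 ± 0.432 RPKM (SD, n = 5) and 6.29 ± 1.22 RPKM (SD, n = 5), a 10.6-fold ratio. The log2 fold change was 3.49 (SE 0.43, 95% interval 2.59 to 4.38, limma adjusted p = 1.19e-05) and 3.16 after median-ratio scaling (limma adjusted p = 0.000334). The Mup genes took 42.2, 39.6, 18.0, 50.5 and 32.4% of the reads in AdCMV mice 1 to 5. Tead2 did not follow this order among them. Its lowest value, in mouse 4, stood beside the largest Mup percentage, and its next lowest, in mouse 3, beside the smallest. A relation between Tead2 and the Mup genes was not tested.

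Tead1 did not reach the fold threshold. Tead1 (NM_001166585, chr7:119902898-120050319, plus strand, mm9) had RPKM values of 1.11, 1.32, 3.31, 1.68 and 2.37 in AdCMV mice 1 to 5 and 3.07, 2.77, 3.95, 4.25 and 2.94 in AdVEGF mice 1 to 5. AdCMV mouse 3, the library with the lowest Mup share of its group, lay among the AdVEGF mice, and the other AdCMV mice lay below them. Between the groups the log2 fold change was 0.85 (SE 0.28, limma adjusted p = 0.0373), and 0.47 after median-ratio scaling (limma adjusted p = 0.109). Without AdCMV mouse 3 it was 1.06 (limma adjusted p = 0.00463), which passed the call.

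Tead3 was not called on either scale. Tead3 (NM_011566, chr17:28468618-28487750, minus strand, mm9) had RPKM values of 1.65, 1.48, 1.86, 1.43 and 2.14 in AdCMV mice 1 to 5 and 1.71, 2.02, 1.79, 2.55 and 2.52 in AdVEGF mice 1 to 5. The groups overlapped through most of their range. Its log2 fold change was 0.29 (SE 0.23, 95% interval -0.20 to 0.78, limma adjusted p = 0.367) and -0.09 (limma adjusted p = 0.767) after median-ratio scaling.

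Tead4 (NM_011567, chr6:128177161-128250831, minus strand, mm9) was close to the limit of detection, with 2, 0, 2, 1 and 1 reads in AdCMV mice 1 to 5 and 1, 8, 3, 5 and 11 in AdVEGF mice 1 to 5. Its RPKM lay between 0 and 0.09 in the AdCMV group and between 0.058 and 0.534 in the AdVEGF group. Summed over mice, 6 reads stood against 28, a rate ratio of 6.10 with an exact interval of 2.48 to 18.0 that covers counting error only. The two-sided exact permutation p of its log2(RPKM + 0.1) was 0.0238, unadjusted, and AdVEGF mouse 1 lay within the AdCMV range. With no filter on low values it was called higher (log2 fold change 1.13, limma adjusted p = 0.042), as were 10.4% of the 18554 rows then tested.

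The make-up of the TEAD pool differed between the groups. The summed RPKM of Tead1 to Tead4 was 3.47, 4.02, 5.63, 3.20 and 5.26 in AdCMV mice 1 to 5 and 10.0, 10.3, 13.2, 14.8 and 12.01 in AdVEGF mice 1 to 5. Tead2 made up 18.0, 30.4, 6.77, 1.66 and 13.2% of it in AdCMV mice 1 to 5 and 51.7, 49.9, 55.4, 52.6 and 50.2% in AdVEGF mice 1 to 5. The share of Tead2 was thus scattered in the AdCMV group and close to even among the AdVEGF mice, at 14.01% ± 11.1 (SD, n = 5) against 52.0% ± 2.22 (SD, n = 5). The share of Tead1 was 44.2% ± 11.9 (SD, n = 5) against 28.1% ± 2.47 (SD, n = 5), and that of Tead3 was 40.5% ± 5.84 (SD, n = 5) against 17.7% ± 2.85 (SD, n = 5). For each of these 3 shares no AdVEGF mouse lay within the AdCMV range, with a two-sided exact permutation p of 0.00794 (adjusted 0.00992), the smallest the design allows. The 3 shares sum to nearly the whole and are not independent: the mean RPKM of Tead1 was 1.96 against 3.39 and that of Tead3 1.71 against 2.12, neither lower in the AdVEGF group. Tead4 made up 1.25% ± 0.932 (SD, n = 5) against 2.23% ± 1.63 (SD, n = 5), with an exact p of 0.270.

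**Figure D3:**
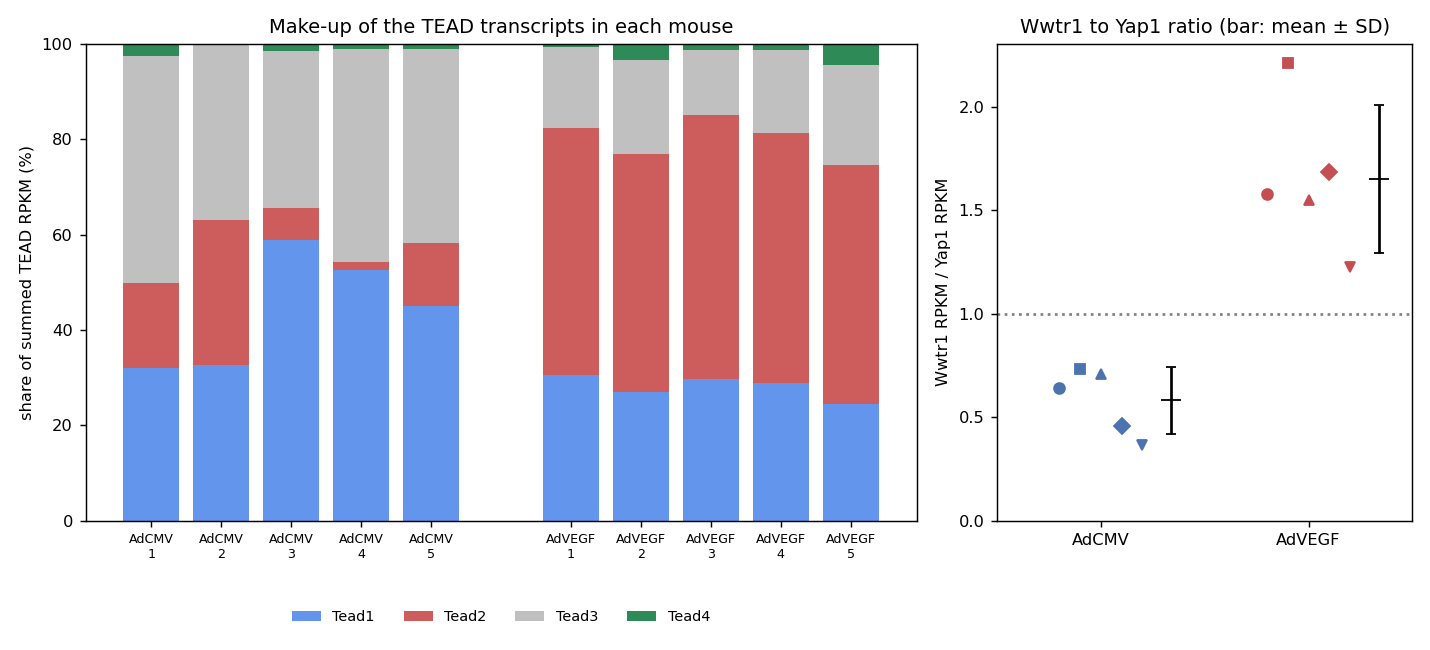
Left, the share of each TEAD gene in the summed TEAD RPKM (vertical axis, percent) of each mouse; right, the ratio of Wwtr1 to Yap1 RPKM in each mouse with mean ± SD, marker shapes being replicates 1 to 5 (circle, square, triangle, diamond, inverted triangle) and the dotted line a ratio of 1. Tead2 takes 49.9 to 55.4% of the TEAD pool in AdVEGF mice and 1.66 to 30.4% in AdCMV mice, and the ratio is above 1 in each AdVEGF mouse and below 1 in each AdCMV mouse.

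Vgll4 encodes a cofactor without a DNA-binding domain that competes with YAP and TAZ for TEAD proteins. Vgll4 (NM_177683, chr6:114812108-114871770, minus strand, mm9) had RPKM values of 5.05, 4.84, 7.11, 6.27 and 6.08 in AdCMV mice 1 to 5 and 10.1, 10.7, 14.2, 8.60 and 8.43 in AdVEGF mice 1 to 5. On the deposited RPKM the groups did not overlap, and after median-ratio scaling they did. The log2 fold change was 0.80 (SE 0.20, 95% interval 0.37 to 1.23, limma adjusted p = 0.00895), below the fold threshold, and 0.41 after median-ratio scaling (limma adjusted p = 0.0907).

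Of the 3 target genes, Ctgf was called higher, Cyr61 came close to the fold threshold and Ankrd1 was near the limit of detection. Ctgf, also named Ccn2, encodes a secreted matricellular protein and is a standard readout of YAP and TAZ activity. Ctgf (NM_010217, chr10:24315248-24318488, plus strand, mm9) had RPKM values of 0.519, 1.08, 1.38, 1.02 and 1.45 in AdCMV mice 1 to 5 and 2.16, 2.08, 8.80, 10.7 and 6.58 in AdVEGF mice 1 to 5. The groups did not overlap, but AdVEGF mice 1 and 2 lay close above the AdCMV group and AdVEGF mice 3, 4 and 5 well above it. The means were 1.09 ± 0.369 RPKM (SD, n = 5) and 6.07 ± 3.89 RPKM (SD, n = 5), a 5.57-fold ratio. The log2 fold change was 2.14 (SE 0.43, 95% interval 1.25 to 3.04, limma adjusted p = 0.00142) and 1.77 after median-ratio scaling (limma adjusted p = 0.0120), and it lay between 1.87 and 2.44 when each mouse was left out in turn.

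Cyr61, also named Ccn1, encodes the related secreted protein whose promoter window is printed with the other sequences. Cyr61 (NM_010516, chr3:145309935-145312949, minus strand, mm9) had RPKM values of 3.08, 3.23, 4.40, 2.05 and 3.70 in AdCMV mice 1 to 5 and 3.44, 4.06, 9.20, 9.43 and 8.38 in AdVEGF mice 1 to 5. AdVEGF mice 1 and 2 lay within the AdCMV range, and AdVEGF mice 3, 4 and 5 lay above all AdCMV mice. Its log2 fold change was 0.97 (SE 0.30, 95% interval 0.33 to 1.60, limma adjusted p = 0.0279) and 0.58 after median-ratio scaling (limma adjusted p = 0.158). It passed the call without AdCMV mouse 3 (1.08), without AdCMV mouse 5 (1.02), without AdVEGF mouse 1 (1.18), without AdVEGF mouse 2 (1.12) and with voom on the recovered reads (1.01).

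Ankrd1 encodes a nuclear ankyrin repeat protein that is abundant in stressed muscle. Ankrd1 (NM_013468, chr19:36186455-36194334, minus strand, mm9) had 1, 9, 3, 5 and 2 reads in AdCMV mice 1 to 5 and 1, 5, 10, 24 and 10 in AdVEGF mice 1 to 5, and it passed the filter only through its AdVEGF mean. The RPKM values were 0.079, 0.380, 0.217, 0.302 and 0.198 in the AdCMV mice and 0.101, 0.384, 1.02, 1.68 and 0.847 in the AdVEGF mice. AdVEGF mouse 1 lay within the AdCMV range, AdVEGF mouse 2 at 0.384 RPKM was level with its top, and AdVEGF mice 3, 4 and 5 lay above it. Its log2 fold change was 1.16 (SE 0.54, limma adjusted p = 0.119) and 0.86 after median-ratio scaling (limma adjusted p = 0.292), with a call only without AdVEGF mouse 1 (1.62, limma adjusted p = 0.0224). In summed reads 20 stood against 50, a rate ratio of 3.27 with an exact interval of 1.91 to 5.80 for counting error.

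Ctgf, Cyr61 and Ankrd1 shared an order among the AdVEGF mice, with mice 3, 4 and 5 above mice 1 and 2. Wwtr1 had its highest value in AdVEGF mouse 2 and its lowest in AdVEGF mouse 5. Tead2 was lower in AdVEGF mice 1 and 2 than in the other AdVEGF mice, at 5.17 and 5.13 against 6.03 to 7.76 RPKM. The summed smooth muscle markers were 54.2, 84.0, 167, 210 and 91.9 RPKM in AdVEGF mice 1 to 5, also lower in mice 1 and 2, whereas the summed pan-endothelial markers were 291, 269, 325, 331 and 275 RPKM. The summed stellate and fibroblast markers went the other way, at 422, 392, 309, 342 and 213 RPKM. Dcn, at 171, 159, 126, 119 and 76.5 RPKM, was the largest part of that sum. Singly, Dcn, Col3a1, Colec11, Lrat and Reln were higher in mice 1 and 2 than in the other AdVEGF mice. Des, Pdgfrb, Col1a1, Hand2 and Ngfr were not, Col1a1 being at 24.6, 27.1, 20.7, 52.6 and 15.9 RPKM. The summed sinusoidal markers, at 243, 188, 212, 236 and 165 RPKM, did not follow the division. Tagln, an actin-binding protein of smooth muscle, had 35.1, 60.6, 115, 137 and 61.9 RPKM in AdVEGF mice 1 to 5 and made up most of the smooth muscle sum. Actg2 and Cnn1 did not follow the division, mouse 5 lying below mouse 2 at 2.05 against 2.79 RPKM and at 0.15 against 0.204 RPKM. By the likeness measure used for Wwtr1, applied to Ctgf after its values had been seen, the nearest rows were Cdh3 (0.457), Plcd1 (0.490) and Tagln (0.503). The division was noticed in the data and not tested, and the part of the smooth muscle markers in the target levels was not tested.

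**Figure D4:**
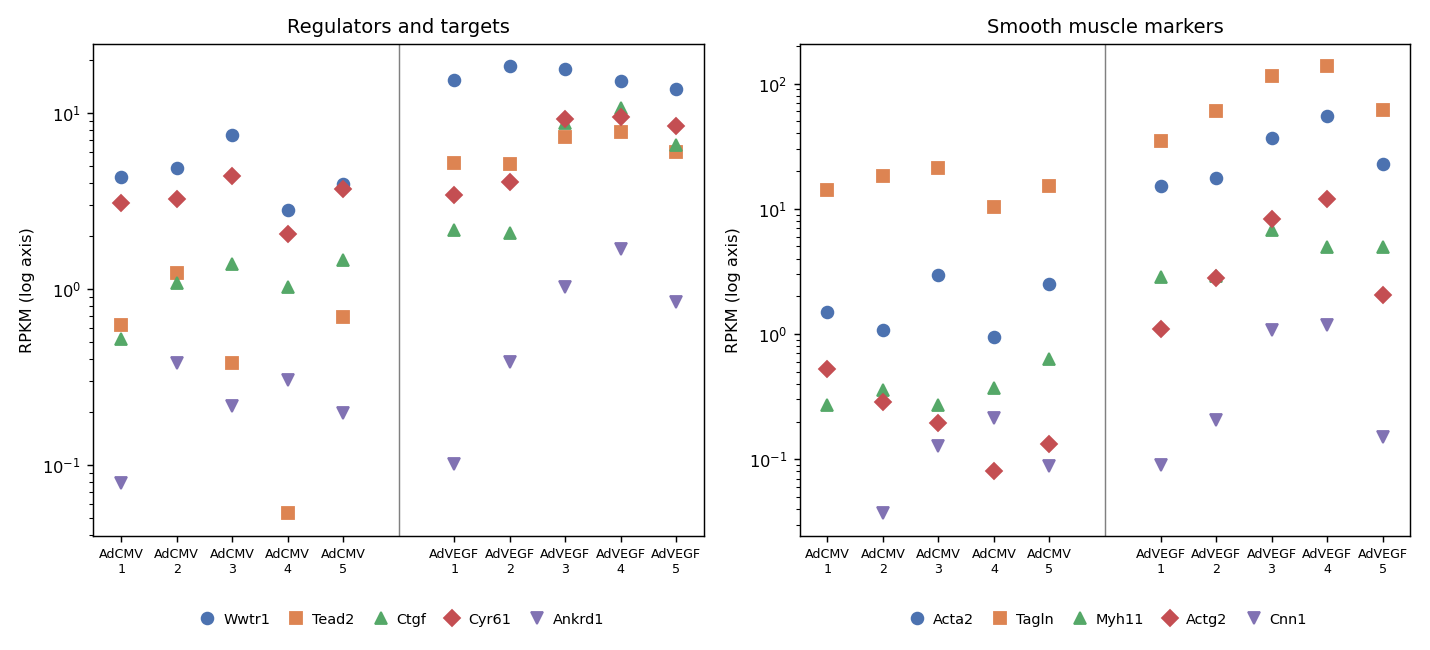
RPKM on a log axis in each of the 10 mice for 2 regulators and the 3 targets (left) and for the 5 smooth muscle markers (right); Cnn1 was 0 in AdCMV mouse 1 and has no point there. In the AdVEGF group Ctgf, Cyr61 and Ankrd1 are lower in mice 1 and 2 than in mice 3, 4 and 5, Acta2, Tagln, Myh11 and Actg2 have their highest values in mice 3 or 4, and Wwtr1 is nearly level.

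Per length, the order of the mean levels in the AdCMV group was Yap1 (8.20 RPKM), Vgll4 (5.87), Wwtr1 (4.70), Cyr61 (3.29), Tead1 (1.96), Tead3 (1.71), Ctgf (1.09), Tead2 (0.596), Ankrd1 (0.235) and Tead4 (0.053), and the ranges over mice of every pair of neighbours overlapped. In the AdVEGF group it was Wwtr1 (16.1 RPKM), Vgll4 (10.4), Yap1 (9.93), Cyr61 (6.90), Tead2 (6.29), Ctgf (6.07), Tead1 (3.39), Tead3 (2.12), Ankrd1 (0.807) and Tead4 (0.264), and only the ranges of Tead1 and Tead3 and of Tead3 and Ankrd1 did not overlap. Wwtr1 thus stood behind Yap1 and Vgll4 in one group and ahead of them in the other. Within single mice, Wwtr1 lay above Cyr61, Cyr61 above Tead1 and Tead3 above Ctgf in 5 of 5 AdCMV mice. In 5 of 5 AdVEGF mice, Wwtr1 lay above Vgll4, Tead1 above Tead3, Tead3 above Ankrd1 and Ankrd1 above Tead4. The other neighbours stood in the order of their means in 2 to 4 of 5 mice.

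Set against the endothelial markers of the same library, most of the genes had a smaller difference between the groups than the markers. The mean log2(RPKM + 0.1) of the 10 pan-endothelial markers differed by 2.48 between the groups, and 9 of the 10 genes differed by less. The median log2 fold change of all rows, 0.38, was also far below 2.48, so falling relative to these markers was usual for a row. The share of all rows that fell without overlap was not computed, so the separations given next cannot be read as particular to these genes. For Yap1, Tead1, Tead3, Tead4, Vgll4 and Cyr61 the level relative to these markers was lower in every AdVEGF mouse than in every AdCMV mouse, with log2 differences between the means of -2.17 for Yap1 and -1.51 for Cyr61. For Tead4 the gap was only from -5.00 in AdCMV mouse 5 to -5.02 in AdVEGF mouse 5, and its groups overlapped against the sinusoidal markers. With 0 to 11 reads a library, the added 0.1 understates its change, and its summed reads gave a rate ratio of 6.10. Its place relative to the markers is therefore undetermined. Wwtr1 was at 0.47, 0.66, 0.60, 0.21 and -0.31 relative to the markers in AdCMV mice 1 to 5 and at -0.38, -0.01, -0.31, -0.41 and -0.57 in AdVEGF mice 1 to 5. The Wwtr1 groups overlapped through AdCMV mouse 5, with a difference of -0.66 between the means. Tead2 alone differed by more than the markers, by 1.01, with overlapping groups. Against the 6 sinusoidal markers, whose mean differed by 1.79, Wwtr1 differed by 0.03 with overlapping groups, and Tead2 was higher in every AdVEGF mouse, by 1.70. These are descriptions of whole liver and do not place a transcript in a cell type.

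The genes upstream of YAP and TAZ were read from a list of 26 kinases, scaffolds, cadherins and junction proteins, all of which were tested. Of these, 10 were called higher beside 13.0% of all rows, and none lower; the 16 others had log2 fold changes from -0.36 to 0.91. The list median was 0.81 beside 0.38 for all rows. After median-ratio scaling 7 were called higher beside 7.77% of all rows, with a list median of 0.41, and the calls of Lats2, Wwc2 and Frmd6 were lost. Fat4, Dchs1 and Ptpn14 passed the filter only through their AdVEGF mean.

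The atypical cadherin pair Dchs1 and Fat4, ligand and receptor at cell contacts, were both called. Dchs1 was at 0.132 to 0.784 RPKM (median 0.208) in the AdCMV group and 2.34 to 4.59 RPKM (median 3.05) in the AdVEGF group, for a log2 difference of 2.96 (SE 0.39, limma adjusted p = 2.64e-05). Fat4 was at 0.099 to 0.284 RPKM (median 0.146) and 0.856 to 1.90 RPKM (median 1.38), with a log2 fold change of 2.30 (SE 0.37, limma adjusted p = 0.000201). Both pairs of ranges were separate.

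Among junction proteins that can hold YAP and TAZ outside the nucleus, Amotl1, an angiomotin relative, was at 0.95 to 1.92 RPKM across AdCMV mice and 5.42 to 8.35 RPKM across AdVEGF mice, with a log2 fold change of 2.34 (SE 0.24, limma adjusted p = 2.13e-06). Tjp1 (ZO-1), a tight junction scaffold, was at 4.18 to 8.66 and 15.2 to 18.6 RPKM (log2 fold change 1.53, limma adjusted p = 7.78e-05). The phosphatase Ptpn14, which binds YAP, was at 0.099 to 0.518 and 0.979 to 1.54 RPKM (log2 fold change 2.25, limma adjusted p = 0.000310). The other angiomotin genes Amot and Amotl2 were not called, with log2 fold changes of 0.90 and 0.64.

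Of the kinases, Map4k4, which can act on LATS beside the MST kinases, was at 2.87 to 7.92 RPKM across AdCMV mice and 17.3 to 21.9 RPKM across AdVEGF mice (log2 fold change 2.01, limma adjusted p = 8.23e-06). Lats2, which phosphorylates YAP and TAZ and is itself a target, was at 1.52 to 3.23 and 4.18 to 6.24 RPKM (log2 fold change 1.23, limma adjusted p = 0.00117, and 0.84 after median-ratio scaling). Its relative Lats1 was not called, at 2.77 to 6.54 and 4.39 to 5.95 RPKM with a log2 fold change of 0.29. The core kinase genes Stk3 and Stk4, for MST2 and MST1, had log2 fold changes of 0.72 and 0.22 and were not called. Wtip, a LIM protein that restrains LATS, was called with a log2 fold change of 2.02 and a limma adjusted p of 0.000750. Wwc2, a relative of KIBRA, and the FERM protein gene Frmd6 had log2 fold changes of 1.13 and 1.08; that of Wwc2 was below 1 without AdCMV mouse 1 (0.997), and that of Frmd6 without AdCMV mouse 1 (0.96) or AdCMV mouse 5 (0.99).

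A second list held 21 other genes described as YAP and TAZ targets, of which 19 were tested and Fjx1 and Foxf2 lay below the filter. Of the 19, 7 were called higher beside 13.0% of all rows and none lower; the 12 others had log2 fold changes from -0.20 to 0.996. The list median was 0.74 beside 0.38 for all rows, and 0.35 with 6 calls after median-ratio scaling. Lats2, Ptpn14 and Amotl2 stand on both lists. The filter was passed only through the AdVEGF mean by 4 genes, Tgfb2, Arhgef17, Ptpn14 and Areg, and the first 3 of these were called.

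Igfbp3, a carrier of insulin-like growth factors, was at 0.851 to 2.57 RPKM (median 1.04) in the AdCMV group and 10.0 to 19.7 RPKM (median 12.4) in the AdVEGF group, with a log2 fold change of 3.33 (SE 0.29, limma adjusted p = 3.29e-07). Its highest AdVEGF value was in mouse 1, where Ctgf was among its lowest. Ccdc80, a secreted matrix protein, was at 3.21 to 6.66 and 14.05 to 27.5 RPKM (log2 fold change 2.20, limma adjusted p = 5.46e-06). The growth factor gene Tgfb2 was at 0.090 to 0.331 and 0.856 to 2.56 RPKM (log2 fold change 2.35, limma adjusted p = 0.000471), with its higher values, 2.24 and 2.56 RPKM, in AdVEGF mice 3 and 4. Arhgef17 and Rbms3, the latter an RNA-binding protein, had log2 fold changes of 1.89 and 1.41. The receptor tyrosine kinase gene Axl came closest to the threshold without passing it, at 0.996 on the log2 scale (limma adjusted p = 0.0111). The study measured Areg and Snai2, along with Ctgf and Cyr61, in cultured endothelial cells hours after BMP2 or BMP6 protein. Whole liver on day 6 after VEGF gene transfer differs in stimulus, time and cells. In it Areg and Snai2 were not called, with log2 fold changes of 0.01 and 0.63. Areg had 2 to 10 reads in AdCMV libraries and 0 to 6 in AdVEGF libraries, so its interval of -1.25 to 1.28 leaves its direction undetermined at this depth.

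**Figure D5:**
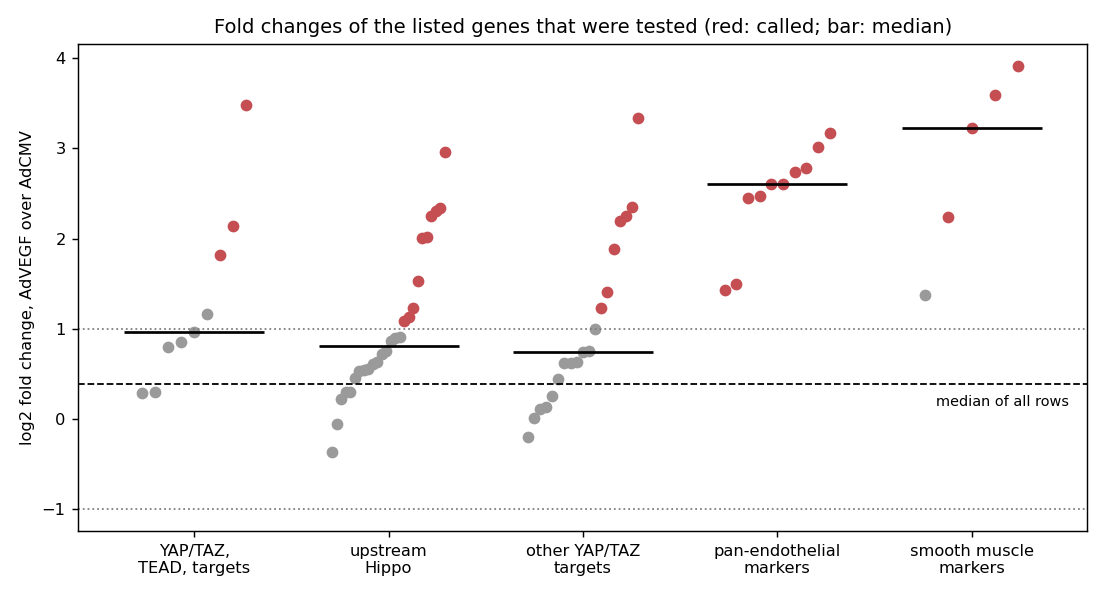
Log2 fold change (AdVEGF over AdCMV, vertical axis) of each tested gene of 5 lists, sorted within a list; red points were called, grey points were not, and black bars are list medians. The dashed line is the median of all rows, 0.38, and dotted lines the fold thresholds. The medians of the YAP/TAZ, upstream and target lists are 0.97, 0.81 and 0.74. They lie between the dashed line and the medians of the pan-endothelial and smooth muscle lists, 2.61 and 3.23. In the smooth muscle list, 3 of 5 genes passed the filter only through their AdVEGF mean.

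Of 9 relatives of the members (3 VGLL, 4 CCN and 2 ankyrin repeat genes), Nov and Wisp1 were tested and both passed the filter only through their AdVEGF mean. Wisp1 (Ccn4) was at 0.233 to 0.506 RPKM across AdCMV mice and 1.33 to 2.53 RPKM across AdVEGF mice, for a log2 difference of 2.09 (limma adjusted p = 7.71e-05). Nov (Ccn3) was at 0.074 to 0.293 and 0.441 to 0.909 RPKM, for a log2 difference of 1.22 (limma adjusted p = 0.0353), and its call was lost after median-ratio scaling (0.91, limma adjusted p = 0.0758) and when any mouse other than AdCMV mouse 3 or AdVEGF mouse 5 was left out (1.03 to 1.33, limma adjusted p of 0.0529 to 0.111). The tafazzin row Taz, whose symbol matches the protein name of Wwtr1, was at 8.05 to 11.3 and 11.9 to 14.1 RPKM, a log2 difference of 0.38 (limma adjusted p = 0.125), beside 0.38 for all rows, and -0.02 after median-ratio scaling.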

How the data were processed

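Poly(A)-tailed libraries of ribosomal RNA-depleted liver RNA were sequenced from 10 mice. According to the submitters' processing notes, reads were mapped with TopHat to mm9 and handled with HOMER. The authors deposited 1 table of RPKM per RefSeq transcript and mouse, which was the unit used; whether counting used the strand is not given in the sources used here. Columns with the authors' own fold changes and FDR were not used, and 5 rows without a symbol were left out of the tests.

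Whole tags were recovered from the steps of the RPKM values (at least 99.9875% of values were whole within 0.05), which gave the library totals. On a 1 kb transcript 3 reads correspond to 0.222 to 0.536 RPKM. The reads summed over the rows, on which the Mup percentages rest, exceeded these totals by 2.31% (AdVEGF mouse 3) to 13.9% (AdCMV mouse 4). The reason was not tested. Intervals on reads cover counting error only. Rows whose mean exceeded 0.5 RPKM in 1 group or both were fitted with limma 3.58.1 (R 4.3.3; lmFit, eBayes with trend) on log2(RPKM + 0.1), which understates the change of low genes, with 10 mice and no covariate. Ratios and shares were tested with two-sided exact permutation tests (Python 3.11.15, numpy 2.4.6). Scripts were tested on simulated data.

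The members and gene lists were chosen with earlier results of these data known. Named genes were the 10 members, every called gene of the upstream, target and relative lists, the Taz row, the 3 rows nearest to Wwtr1, Tead2 and Yap1, and markers beside a result; uncalled list genes named singly, and the rows nearest to Ctgf, were chosen after their values were seen. Alternatives were other scalings, pseudocounts, filters, voom on recovered reads, a replicate block and leaving out each mouse. In the 20 pairs of libraries within a group the variance was at least 12.6 times the counting noise, so no replicate was counted as a copy. No member overlapped another row of the table.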

Additional observations from a re-analysis of the deposited data

How the results depend on the processing

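Wwtr1, Tead2 and Ctgf were called higher in all 20 alternative fits, with limma adjusted p up to 0.000110, 0.000489 and 0.0257. The number of the 10 genes called was 3 to 5 when each mouse was left out, with 5 without AdCMV replicate 3 (Tead1 and Cyr61 added) and 5 without AdVEGF replicate 1 (Cyr61 and Ankrd1 added). Over all rows the higher calls numbered 1425 to 2357 in these fits, beside 1808 with all mice. They were most, 2357, without AdCMV replicate 3, where calls rose in general, and numbered 1730 without AdVEGF replicate 1. The relatives gave 1 to 2 calls when each mouse was left out, and 1 with the filter on the mean over all mice, library totals without the Mup genes, median-ratio scaling, upper quartile scaling, voom with median-ratio scaling and a pseudocount of 1, Nov being the gene lost or not tested. With a pseudocount of 1 the upstream list had 5 calls and the target list 4, and the higher calls over all rows fell to 954.

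Over all rows, the higher calls numbered 985 with totals without the Mup genes, 1082 with median-ratio scaling, 1125 with upper quartile scaling, 1135 with voom and median-ratio scaling and 954 with a pseudocount of 1, and the lower calls 558, 438, 393 and 477 under the first 4 of these. Of the calls on the deposited scale, 89.4% were higher, beside 71.2% after median-ratio scaling. Under the same 4 scalings the log2 fold change of Yap1 was -0.19, -0.092, -0.049 and -0.094 and that of Tead3 -0.19, -0.093, -0.051 and -0.055, and that of Taz was -0.12 without the Mup genes, -0.021 with median-ratio scaling and -0.015 with voom and median-ratio scaling; none of the 3 was called in any alternative, and the cause of the turned signs was not tested.

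The replicate numbers are shared between the groups, and the labels do not say that a number marks a shared litter or day. The deviations of same-numbered libraries correlated at 0.00763 to 0.291, not all above 0.1, and 4 of 10 libraries correlated best with their own number, so the numbers were not treated as pairs. With the replicate block, 1933 rows were higher and 256 lower, and 3 of the 10 genes were called. Sign flips within the numbers gave the same differences of 1.53 for the log2 ratio of Wwtr1 to Yap1 and of -16.1, 37.9 and -22.8 percentage points for the shares of Tead1, Tead2 and Tead3, each with an exact p of 0.0625, the smallest that 5 such pairs can give. Depth limits Tead4, with 0 to 11 reads a library, Ankrd1, with 1 to 24, and Areg, with 0 to 10.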
